A study of Homo sapiens with 24 samples.

Results

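The comparison described here set TYUC-1 cells after 3 days of ΔNp63 induction against the same line before induction. TYUC-1 is a human cell line from a neuroendocrine carcinoma of the esophagus, kept in suspension. The libraries were chosen by their titles: the 3 replicates of the ΔNp63 line at day 3 and the 3 replicates of that line at day 0, which are 6 of the 24 libraries of the series. The other libraries hold days 1 and 6 of this line and all days of a second line that carries TAp63.

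Both groups carry the genotype labelled i-DNp63, a doxycycline-inducible ΔNp63. Day 3 cells had 3 days of DMSO and 3 days of doxycycline at 1 µg/ml, and day 0 cells had 6 days of DMSO. A treatment label also names EPZ-6438, which blocks the enzyme EZH2, for 3 days in the day 3 samples and for 0 days in the day 0 samples, while titles, induction labels and design text name only p63 induction. Day 1 and day 6 cells of this line had 1 and 6 days of doxycycline and 5 and 0 days of DMSO. TAp63 cells at day 3 and day 0 had the same days of each as ΔNp63 cells. In these samples too the label names EPZ-6438 for as many days as doxycycline. If the inhibitor was present, its effect and that of the induced p63 cannot be told apart in any comparison of days within a line. The labels do not state whether the line is a single clone, and doxycycline-treated cells without the construct were not analysed here. The replicates are called biological with no word on how the cultures were separated. The p-values thus reflect only how far libraries spread within groups, taken over the 23 libraries fitted from both lines unless stated otherwise.

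p63, encoded by TP63, is a transcription factor of the p53 family that stratified epithelia such as the esophageal lining depend on. Separate promoters give TAp63, which begins with a transactivation domain, and ΔNp63, which lacks that domain and is the main form of basal squamous cells, where it keeps keratin, adhesion and growth genes active. Carcinomas with neuroendocrine features lack much of this squamous program.

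The 6 libraries held 12724449 to 18277720 counts, and levels are given as CPM, counts scaled to a common library size after TMM adjustment. Replicates of a group differed from one another beyond sampling noise, with a chi-square per degree of freedom of 4.99 to 25. Libraries also fell apart by replicate number: a first principal component with 31.9% of the variance placed replicate 1 at -24.3, replicate 2 at 11.6 and replicate 3 at 22.5 among day 3 libraries, against -33.4, 2.34 and 19.9 among day 0 libraries. The second component, with 17.6%, held the days apart, with 20.6 to 23.2 at day 3 and -17.4 to -15.25 at day 0. VIM, a filament gene of mesenchymal cells, followed the replicate number, with 13.5, 2.35 and 0.188 CPM in replicates 1 to 3 of day 3, against 21.6, 3.07 and 0.197 CPM in those of day 0. The fetal globin gene HBG2 did so too, with 19.6, 2.18 and 0.501 CPM at day 3, against 30.7, 5.23 and 0.131 CPM at day 0. Results below are therefore followed by the value with the replicate number as a block ("blocked"). The blocked value is given where it changes a call or moves a count by more than 1.5 times. Fits that leave out 1 library held no block, and the block itself ended no call of a named gene.

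TP63 itself, at chr3:189596746-189897279 on the plus strand of hg38, had 1026, 769 and 801 CPM in day 3 libraries, against 4.94, 3.98 and 4.14 CPM in day 0 libraries. Every induced library lay far above every uninduced one. The log2 change was 7.64 ± 0.19 (SE, edgeR adjusted p = 2.17e-16), and the count sums all isoforms and the construct. A microRNA gene, MIR944, lies within it.

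Across 15783 genes tested with edgeR, 1000 passed an adjusted p of 0.05, the threshold used throughout, which is 6.34% of them. Of these, 686 rose at day 3 (4.35% of genes tested) and 314 fell (1.99%). The rises were larger: 305 genes rose at least 2-fold (1.93%) and 29 fell at least 2-fold (0.184%), and the median change was 0.932 log2 units among genes that rose and 0.509 among those that fell. In 993 of the 1000 the 2 groups did not overlap, and in all 1000 the 3 same-numbered pairs moved one way. Both counts cover only genes called from these same libraries, so they are no further support for the calls. Blocked, 1933 genes rose (12.2%) and 1779 fell (11.3%), among them all 1000 with the same direction. At an unadjusted p under 0.05, 1758 genes were higher (11.1%) and 1253 lower (7.94%), and DESeq2 called 758 and 513. Rises made up 68.6% of the calls as fitted, 52.1% blocked, and 79.5% with only the 6 libraries fitted. Leaving out 1 library gave totals of 840, 531 and 616 without replicate 1, 2 or 3 of day 3 and of 625, 512 and 759 without replicate 1, 2 or 3 of day 0.

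**Figure D1:**
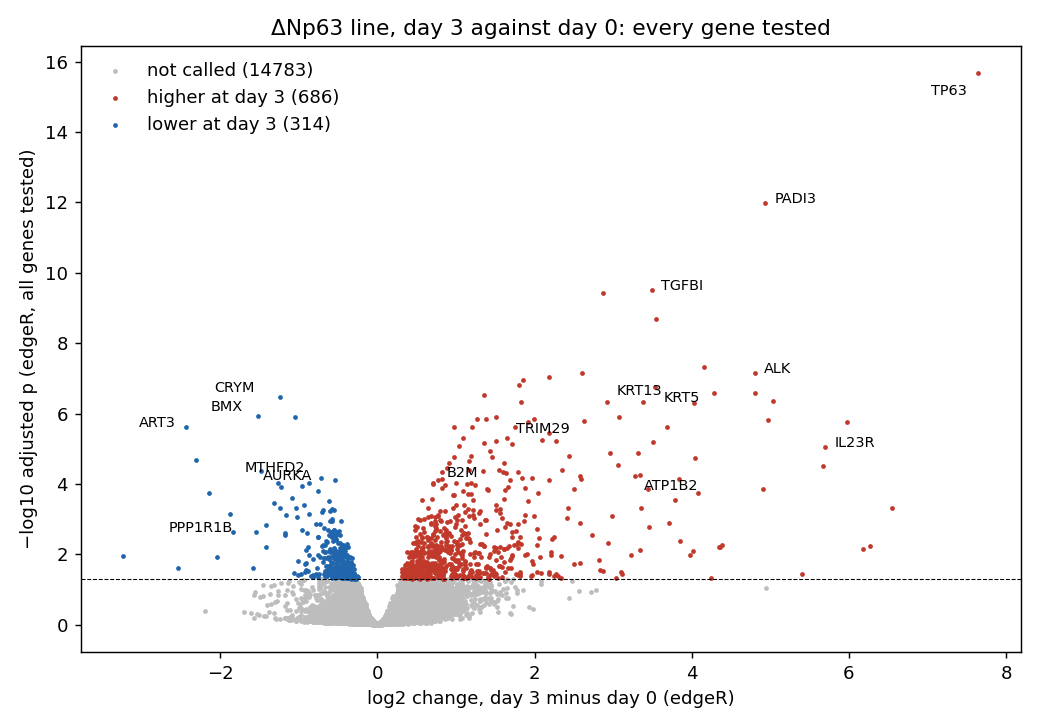
Log2 change (horizontal axis, day 3 minus day 0) against minus log10 of the edgeR adjusted p (vertical axis) for the 15783 genes tested in the ΔNp63 line; the dashed line marks 0.05. The 686 genes that rose reach further from 0 than the 314 that fell, and TP63 lies farthest at a log2 change of 7.64; changes of the 4 called genes with 0 counts at day 0 depend on the fit's prior count.

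Genes averaging at least 5 CPM in the higher group, with the groups apart and symbols other than LOC, LINC or MIR, were ranked by their change, and IL23R, PADI3 and ALK rose most after TP63. IL23R, a subunit of the interleukin-23 receptor, had 22.3, 28.1 and 38.9 CPM at day 3, against 1.15, 0.455 and 0.197 CPM at day 0, a log2 change of 5.70 ± 0.65 (edgeR adjusted p = 9.06e-06). PADI3, an enzyme of hair follicle and epidermis that turns arginine into citrulline, at chr1:17249098-17284232 on the plus strand, had 99.3, 90.5 and 90.9 CPM at day 3, against 2.97, 3.07 and 3.09 CPM at day 0. Its log2 change was 4.94 ± 0.20 (edgeR adjusted p = 1.06e-12). ALK, a receptor tyrosine kinase of the developing nervous system, had 6.36, 6.76 and 8.34 CPM at day 3 and 0.494, 0.171 and 0.131 CPM at day 0, with a log2 change of 4.80 ± 0.37. In none of these genes did the groups overlap, which the ranking required. LOC105374389 overlaps ALK and MIR3972 lies in PADI3; counting took no account of strand, so values of genes with such a neighbour are uncertain, among them also HSPG2 (LDLRAD2), GRHL3 (STPG1), ITGA6 (ITGA6-AS1) and HLA-F.

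Further rises in that ranking followed. LIMS2, an adaptor at integrin adhesions that overlaps GPR17, averaged 5.40 ± 0.737 CPM at day 3 and 0.281 ± 0.214 CPM at day 0 (SD, n = 3 each). TRPM6, a magnesium channel of kidney and gut, averaged 5.24 ± 0.379 CPM at day 3 and 0.325 ± 0.153 CPM at day 0. COL19A1, a collagen of basement membrane zones, averaged 12.5 ± 1.27 CPM at day 3 and 1.06 ± 0.0658 CPM at day 0. These rose by 4.28, 4.02 and 3.54 log2 units. MFSD4A-AS1, a transcript antisense to MFSD4A, rose by 4.16, ZCCHC24, a zinc-finger RNA-binding protein gene, by 3.38, and XACT, a long noncoding RNA of the X chromosome, by 3.36 log2 units. RNASE1, a secreted ribonuclease, rose by 3.08. Their edgeR adjusted p values ran from 2.07e-09 to 0.000479. The 3 day 3 libraries lay above the 3 day 0 libraries in each, as the ranking required.

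Falls were smaller. ART3, an ADP-ribosyltransferase family gene that overlaps CXCL10 and CXCL11, had 0.795, 1.17 and 0.940 CPM at day 3, against 4.94, 5.12 and 5.78 CPM at day 0, a log2 change of -2.43 ± 0.25 (edgeR adjusted p = 2.43e-06). PPP1R1B, known as DARPP-32, a phosphatase inhibitor of dopamine signalling, fell by 1.55 ± 0.29 log2 units. KCNN4, a calcium-activated potassium channel, fell by 1.48, and CD6, a lymphocyte adhesion receptor, by 1.31. CYTH4, an exchange factor for ARF proteins of blood cells, fell by 1.27. CRYM, a thyroid hormone-binding protein overlapped by CRYM-AS1, had 50.8, 47.2 and 49.4 CPM at day 3, against 121, 123 and 104 CPM at day 0, and fell by 1.24 ± 0.11. TARP, a transcript of the T cell receptor gamma locus, fell by 1.24, and INHBE, an activin subunit raised by amino acid stress, by 1.18. None of these genes' groups overlapped, which was a condition of the ranking that chose them and is no further support.

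Squamous differentiation genes, which act in the outer layers of stratified epithelia, rose in 12 members. These were 12 of 41 tested (29.3%, against 4.35% of all genes) and 0 fell. For this and every list below, all genes gave 4.35% higher and 1.99% lower, and blocked 12.2% and 11.3%. All lists were chosen with earlier results of these data known, so a larger share in a list is a description and no support. At an unadjusted p under 0.05 the squamous differentiation counts were 20 and 3, and DESeq2 called 14 and 0. The median log2 change was 0.411, against -0.01 over all genes, and blocked 21 rose and 3 fell. KRT13, the keratin of esophageal suprabasal cells, had 80.9, 55.4 and 54.8 CPM at day 3, against 10.9, 6.93 and 7.49 CPM at day 0, a log2 change of 2.93 ± 0.27 (edgeR adjusted p = 4.85e-07). SCEL, the envelope precursor sciellin, overlapped by SCEL-AS1, had 1.59, 2.57 and 3.38 CPM at day 3 and 0.247, 0.284 and 0.197 CPM at day 0, and rose by 3.32. S100A8, a calcium-binding alarmin that overlaps S100A7A, had 1.83, 1.06 and 1.38 CPM at day 3 and 0.0824, 0.171 and 0.131 CPM at day 0, and rose by 3.34. Day 3 lay above day 0 in each of them. KLK7, a desquamation protease, had 33 counts over the 3 day 3 libraries and 0 over the 3 day 0 libraries, at least 9.85-fold higher when day 0 is set to 3 counts over the group.

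The remaining members that rose were EMP1, S100A16, TMPRSS11E, S100A14, ALOX12B, KLK13 and CSTB, so keratin, envelope, protease and S100 genes were all represented. KRT4, the partner keratin of KRT13, had 1.47, 1.79 and 1.75 CPM at day 3 and 0.742, 0.853 and 0.591 CPM at day 0, with a log2 difference of 1.18 that was not called (edgeR adjusted p = 0.133) but was blocked (adjusted p = 0.0181). SPRR3, a cornified envelope precursor of esophagus, had 3.67, 6.37 and 6.77 CPM at day 3 and 5.36, 8.01 and 6.04 CPM at day 0, groups that overlapped (log2 difference -0.22, edgeR adjusted p = 0.815). Envelope genes such as IVL, FLG and the SERPINB3 and SERPINB4 pair had too few counts to be tested.

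Basal squamous genes rose too, led by KRT5, the basal keratin. KRT5, at chr12:52514575-52520394 on the minus strand, had 7.95, 7.71 and 6.96 CPM at day 3, against 0.659, 0.739 and 0.525 CPM at day 0, a log2 change of 3.53 ± 0.29 (edgeR adjusted p = 1.79e-07). TRIM29, a tripartite motif protein of basal epithelia, had 94.9, 80.0 and 80.0 CPM at day 3 and 24.6, 32.9 and 23.6 CPM at day 0, with a log2 change of 1.65 ± 0.18. S100A2, an S100 protein of basal cells and a known p63-responsive gene, had 12.6, 16.4 and 16.6 CPM at day 3 and 2.72, 4.15 and 5.45 CPM at day 0, with a log2 change of 1.87 ± 0.31 (edgeR adjusted p = 0.000766). None of these groups overlapped. NGFR, the low-affinity nerve growth factor receptor of basal cells, which overlaps LOC100288866 and MIR6165, rose by 3.46 to 1.65, 1.95 and 2.51 CPM at day 3, against 0.165, 0.227 and 0.131 CPM at day 0.

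In all, 6 of 24 tested basal squamous members rose (25%), the sixth being KRT15, with a median of 0.408, and blocked 9 rose and 2 fell. TP63 is one of the 6, and the list holds the induced gene. One member fell: ITGA6, the alpha-6 integrin of hemidesmosomes, chosen for mention after its values were seen, changed by -0.87. KRT14, the partner keratin of KRT5, stayed near silence, with 0, 1 and 0 counts at day 3 and 2, 1 and 1 counts at day 0, and SOX2 and ZNF750, regulators of squamous cells, were at 0 in all 6 libraries.

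The promoter sequences of KRT5 and S100A2 are shown because these basal genes rose and because each holds 1 of the motifs searched. Both are the 250 bases before the start in RefSeq, build GRCh38.p14, written 5′ to 3′ on the gene's strand, chr12:52520395-52520644 and chr1:153565845-153566094, both minus. Capitals mark a p53-family half-site in KRT5, 97 bases upstream, and TGACTCA, the AP-1 motif TGANTCA, in S100A2, 52 bases upstream.
KRT5: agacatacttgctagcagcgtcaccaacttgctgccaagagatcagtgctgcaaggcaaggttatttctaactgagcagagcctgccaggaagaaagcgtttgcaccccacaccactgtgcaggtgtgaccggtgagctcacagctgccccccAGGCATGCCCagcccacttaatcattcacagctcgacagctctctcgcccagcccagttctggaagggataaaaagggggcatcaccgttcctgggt
S100A2: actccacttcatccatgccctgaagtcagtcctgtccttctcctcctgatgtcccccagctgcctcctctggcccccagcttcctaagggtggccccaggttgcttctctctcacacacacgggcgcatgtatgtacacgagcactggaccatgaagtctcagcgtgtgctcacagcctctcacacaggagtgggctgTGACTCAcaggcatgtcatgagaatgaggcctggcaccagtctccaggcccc

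Both strands were searched for 5 motifs in 11443 tested genes with such a promoter. The half-site lay in 4.43% of them, in 6.82% of the 469 such genes that rose and in 5.73% of the 227 that fell. For TGANTCA these shares were 4.04%, 6.18% and 4.85%. Of 30 squamous differentiation promoters, of called and uncalled genes, 26.7% held TGANTCA and 13.3% the half-site. Among the 8 of called genes 2 held TGANTCA and 1 the half-site. These are descriptions of letters in a window, with no test.

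**Figure D2:**
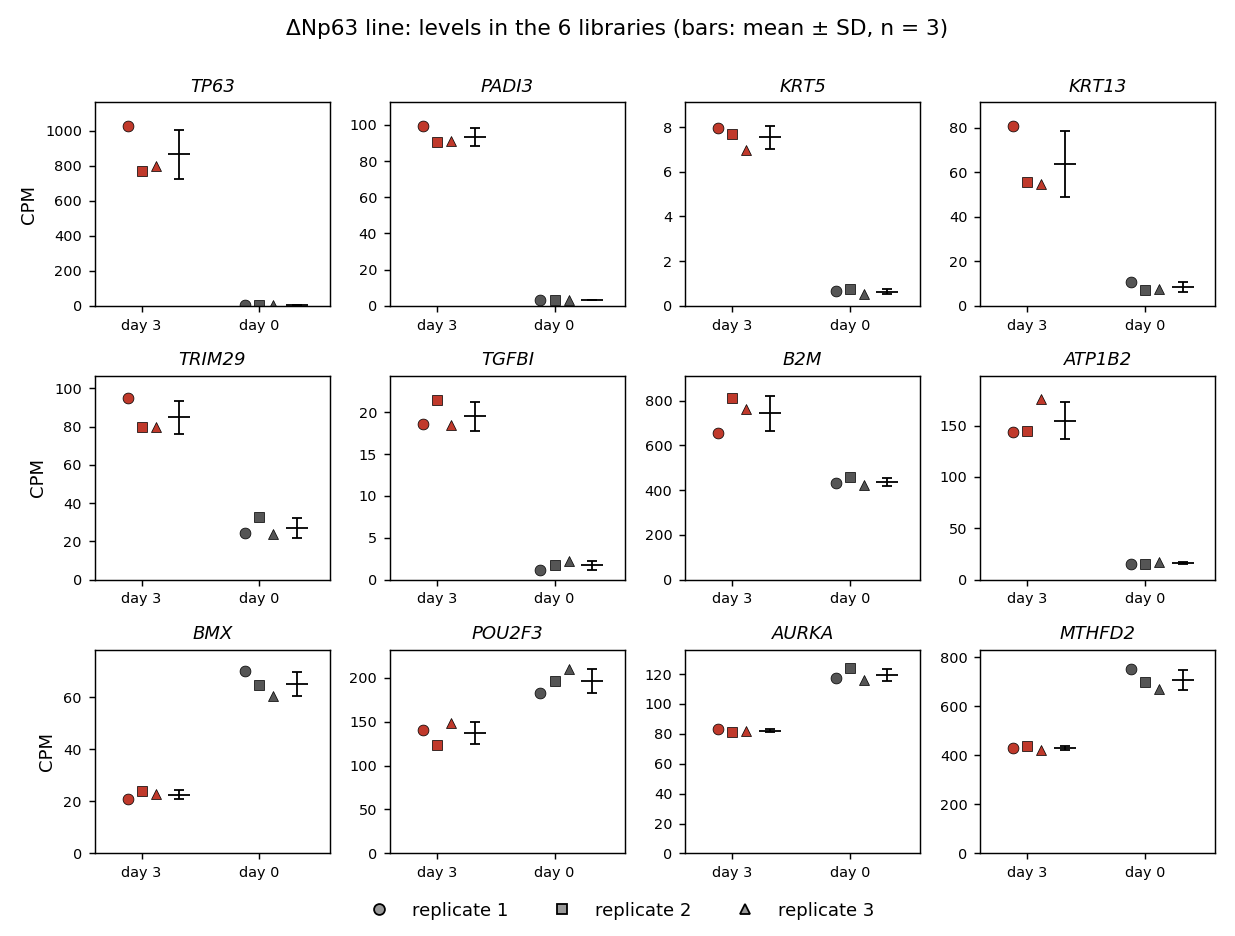
CPM (vertical axis, linear from 0) of 12 genes in the 3 day 3 libraries (red, left) and the 3 day 0 libraries (grey, right) of the ΔNp63 line, by replicate number, with mean ± SD beside the points. The groups do not overlap in any of these genes; TP63, PADI3, KRT5, KRT13, TRIM29, TGFBI, B2M and ATP1B2 are higher at day 3, BMX, POU2F3, AURKA and MTHFD2 lower.

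Matrix genes moved with them. TGFBI, a secreted protein that binds integrins and collagen, had 18.6, 21.5 and 18.4 CPM at day 3, against 1.15, 1.71 and 2.23 CPM at day 0, a log2 change of 3.50 ± 0.19 (edgeR adjusted p = 3.14e-10). FN1, fibronectin, had 65.7, 70.6 and 70.3 CPM at day 3 and 39.8, 32.6 and 33.6 CPM at day 0, with a log2 change of 0.96 ± 0.14. CD44, the hyaluronan receptor, rose by 0.68 with groups apart. These 3 were the calls among 20 tested members of the mesenchymal transition and matrix list (15%), with 0 that fell and a median of 0.365; blocked, 6 rose. VIM, above, gave a log2 difference of -0.59 (edgeR adjusted p = 0.887).

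Among 30 tested hemidesmosome and basement membrane members 7 rose (23.3%), 1 fell and the median was 0.181; blocked, 12 rose and 4 fell. KRT5 and NID1, the basement membrane linker nidogen, rose by 3.53 and 2.98 log2 units; NID1 had 0.856, 1.79 and 0.689 CPM at day 3 against 0.165, 0.114 and 0.131 CPM at day 0. HSPG2, perlecan, rose by 1.31 and COL7A1, the anchoring fibril collagen, by 0.96. HSPG2's call was lost without replicate 1 of day 3 or replicate 2 or 3 of day 0 (edgeR adjusted p up to 0.0695), and COL7A1's without replicate 2 or 3 of day 3 or replicate 2 of day 0 (up to 0.14). The list's count of 7 was 4, 3, 2 and 4 without replicate 2 or 3 of day 3 and replicate 2 or 3 of day 0. COL4A5, ITGA3 and ITGB5 completed the rises and ITGA6 was the fall. None of the 11 tested desmosome genes was called: unadjusted, 2 were higher and 0 lower, DESeq2 called 1 and 0, and blocked 2 rose and 1 fell.

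Genes of heparan sulfate chains and ion pumps held some of the larger changes. GPC4, a glypican, had 3.42, 3.91 and 3.89 CPM at day 3 and 0, 0.114 and 0.197 CPM at day 0. HS6ST3, a heparan sulfate 6-O-sulfotransferase, rose by 1.16 and SDC1, a syndecan, by 0.74. With SDC2, 4 of 26 tested members of the heparan sulfate list rose (15.4%) and GPC2, a glypican, fell by 0.50 with a call lost without replicate 3 of day 3 or replicate 1 or 2 of day 0 (edgeR adjusted p up to 0.0832). The median was 0.12, and blocked 8 rose and 2 fell. ATP1B2, a sodium pump beta subunit, had 144, 145 and 175 CPM at day 3 against 15.1, 15.6 and 16.9 CPM at day 0, a log2 change of 3.28 ± 0.43 (edgeR adjusted p = 5.8e-05). FXYD3, a pump regulator of epithelia with MIR6887 within it, had 10.4, 12.9 and 8.77 CPM at day 3 against 1.15, 2.27 and 1.64 CPM at day 0, with a log2 change of 2.63 ± 0.26. ATP12A, a nongastric proton pump, fell by 0.92, lost without replicate 1 or 2 of day 3 or of day 0 (edgeR adjusted p up to 0.131). Of 9 tested pump members 2 rose (22.2%) and 1 fell (11.1%), and the median was 0.0438.

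Epithelial markers beyond squamous ones moved little. Of 31 simple epithelial members 2 rose (6.45%) and 2 fell (6.45%), against 4.35% and 1.99% of all genes, with a median of 0.042. Of 11 columnar and secretory members 1 rose (9.09%), LIPF, a gastric lipase, and 0 fell. The median of that list was -0.131, and blocked 2 rose and 1 fell. KRT19, a simple keratin, had 458, 363 and 344 CPM at day 3 against 303, 269 and 222 CPM at day 0 and rose by 0.55, PRSS8, prostasin, rose by 0.83, and CGN, the junction protein cingulin, fell by 0.60. ESRP1, an epithelial splicing regulator, fell by 0.27. The calls of KRT19 and PRSS8 were each lost without any of 4 single libraries (edgeR adjusted p up to 0.144 and 0.0989). For KRT19 these were replicates 1 and 2 of day 3 and 2 and 3 of day 0. For PRSS8 they were replicates 2 and 3 of day 3 and 1 and 3 of day 0. Blocked, with every replicate kept, the edgeR adjusted p was 1.33e-05 for KRT19 and 0.00104 for PRSS8. ESRP1's call was lost without any of the 6 libraries, and LIPF's without replicate 2 of day 0 (edgeR adjusted p up to 0.0739). Without 1 library the simple epithelial list had 0 to 1 that rose and 1 that fell. Among 32 epithelial transcription factors 3 rose (9.38%) and 1 fell (3.12%), with a median of 0.0506, and blocked 6 rose and 3 fell. HES2, a hairy-related repressor, rose by 1.21, and GRHL3 and GRHL1, grainyhead factors of barrier formation, by 1.03 and 0.48. SOX9, of progenitor epithelia, fell by 0.42, a call held only in the fit without replicate 1 of day 3 among those leaving out 1 library (edgeR adjusted p up to 0.193).

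Tuft cell genes fell in 8 members. Tuft cells are chemosensory epithelial cells set up by the factor POU2F3, and tumours can carry their program. Of 29 tested members 0 rose and 8 fell (27.6%, against 1.99% of all genes), the median was -0.354, and blocked 2 rose and 17 fell. BMX, a TEC-family kinase, had 20.8, 24.2 and 22.9 CPM at day 3, against 70.0, 64.6 and 60.6 CPM at day 0, a log2 change of -1.52 ± 0.15 (edgeR adjusted p = 1.21e-06). AVIL, an actin regulator of tuft cells that overlaps TSFM, had 12.6, 14.8 and 13.8 CPM at day 3 against 27.9, 37.4 and 30.9 CPM at day 0, with a log2 change of -1.22 ± 0.17. POU2F3, overlapped by LOC649133, had 141, 123 and 148 CPM at day 3 against 183, 196 and 210 CPM at day 0, with a log2 change of -0.52 ± 0.12 (edgeR adjusted p = 0.00923), lost without replicate 2 of day 3 (adjusted p = 0.0674). In each the groups did not overlap. MYB, a proto-oncogenic transcription factor, fell by 0.70, and GFI1B, RGS13 and SOX9 were also called. The summed level of the list was 2910 to 3050 CPM at day 3, against 3440 to 3800 CPM at day 0. In bulk RNA, fewer cells of a type and less RNA per cell cannot be told apart.

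The neuroendocrine list held few calls, with 1 rise and 1 fall among 32 tested members (3.12% each, against 4.35% and 1.99% of all genes). Its summed level was 1510 to 1590 CPM at day 3, against 1680 to 1730 CPM at day 0. Negative changes were found in 19 of the 32 and positive ones in 13, against 8230 and 7553 of all 15783 genes tested. The median was -0.132, and blocked 5 rose and 6 fell. SCGN, the calcium-binding protein secretagogin, had 2.57, 2.85 and 3.20 CPM at day 3 and 0.824, 0.739 and 0.854 CPM at day 0, and rose by 1.83 ± 0.38 (edgeR adjusted p = 0.00514). PROX1, a homeobox factor, fell by 0.52, a call lost without replicate 1 of day 3 or replicate 3 of day 0 (edgeR adjusted p up to 0.0963). NEUROD1, a neurogenic factor, averaged 4.51 ± 1.11 CPM at day 3 and 4.49 ± 0.820 CPM at day 0 (edgeR adjusted p = 0.998), and SYP, synaptophysin, overlapped by SYP-AS1, averaged 3.59 ± 0.738 CPM at day 3 and 2.84 ± 0.373 CPM at day 0 (edgeR adjusted p = 0.45). The groups overlapped in both. INSM1 and CHGA, defining neuroendocrine markers of the labelled carcinoma type, were near silence in all 6 libraries, with 3 to 7 and 4 to 9 counts per library at day 3 and 2 to 10 and 3 to 6 at day 0, and were not tested.

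Markers of other cell types gave few calls. Of the fibroblast list 1 of 7 rose and 1 fell (14.3% each). COL3A1, a fibrillar collagen, had 43 counts in the induced libraries and 2 in the uninduced ones, a depth-adjusted ratio of 19.2 (95% interval 5.01 to 164, counting error only). PDGFRA, the platelet-derived growth factor receptor alpha, fell by 0.75. No immune cell (9 tested), endothelial (5) or erythroid (9) marker was called: unadjusted, the higher and lower counts were 0 and 2, 1 and 1, and 0 and 0, and by DESeq2 0 and 1, 0 and 0, and 0 and 0. Blocked, 1 rose and 2 fell among immune, 1 and 1 among endothelial, 0 and 1 among erythroid, and 2 and 1 among fibroblast markers. THY1, FCGR3A, EMCN and AHSP, 1 marker of each of these 4 types, were at 0 in all 6 libraries. The fibroblast markers summed to 44.9 to 53.4 CPM at day 3 and 46.2 to 54.1 CPM at day 0. The immune, endothelial and erythroid sums were 678 to 895, 9.94 to 15 and 2.07 to 54.6 CPM at day 3, against 959 to 1140, 13.7 to 18.5 and 2.63 to 84.5 CPM at day 0. PTPRC, the pan-leukocyte marker, had 1.69 to 3.00 CPM at day 3 and 1.84 to 3.96 CPM at day 0. The part of other cell types in the results was not tested.

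**Figure D3:**
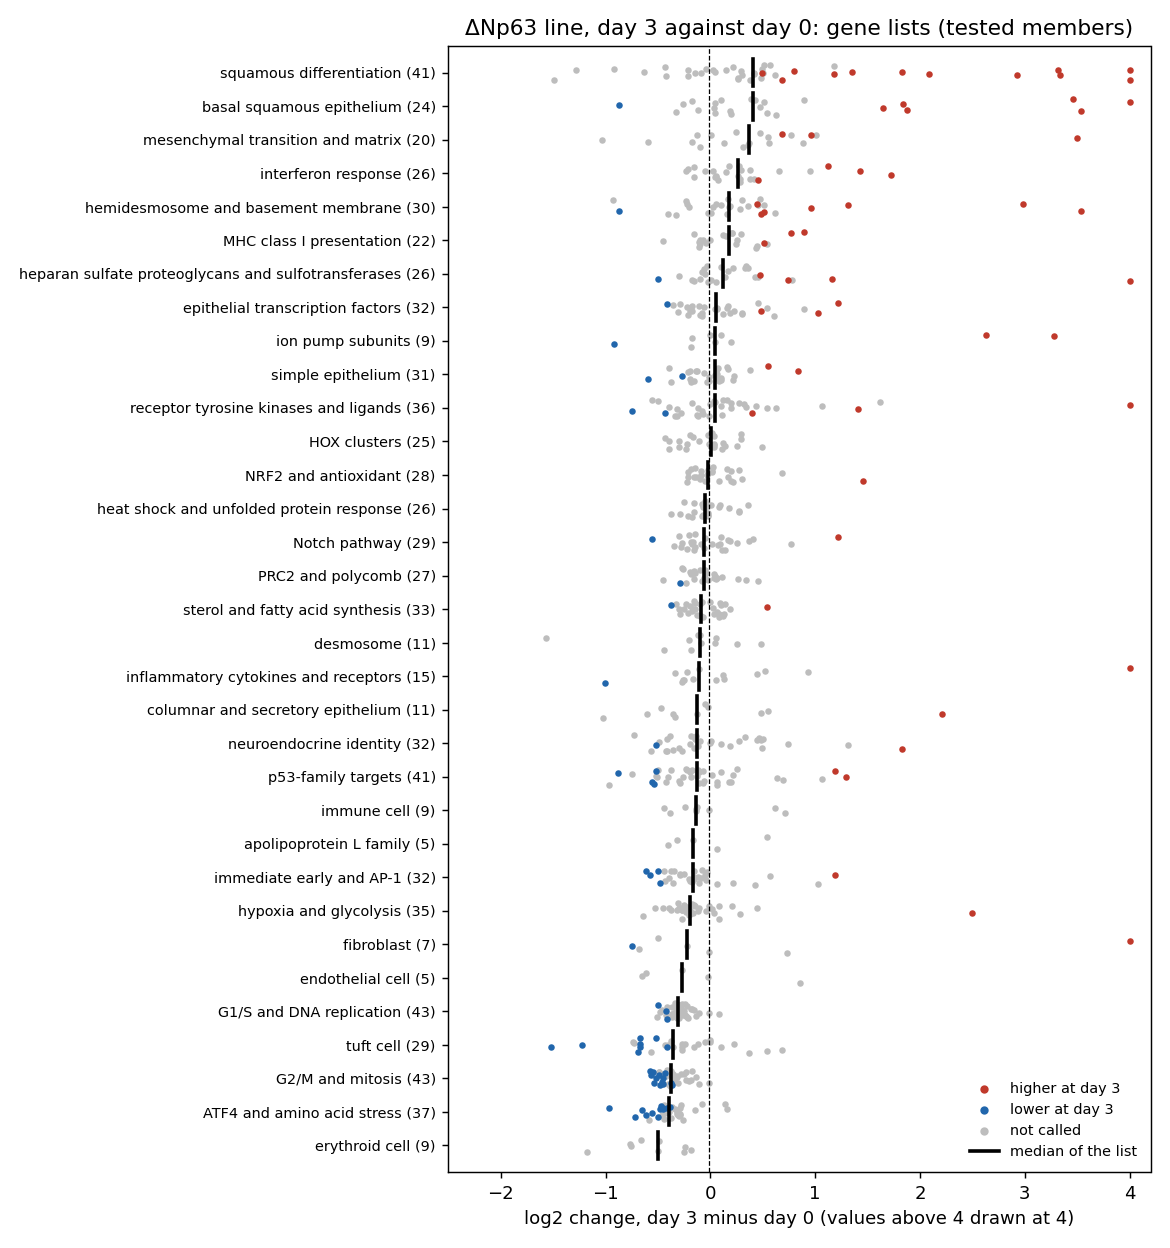
Log2 change at day 3 minus day 0 (horizontal axis) of each tested member of 33 gene lists in the ΔNp63 line, red where called higher, blue where called lower and grey where not called, with the list median as a bar and the median of all genes as a dashed line; the number tested is in brackets. Squamous lists sit right of the dashed line, at medians of 0.411 and 0.408, and the ATF4, G2/M and tuft cell lists left of it, at -0.392, -0.376 and -0.354. The erythroid list, with 9 members tested and 0 called, lies farthest left at -0.503. Values above 4 are drawn at 4.

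Antigen presentation and interferon genes rose in small numbers. B2M, which encodes beta-2 microglobulin, had 657, 812 and 761 CPM at day 3, against 430, 457 and 423 CPM at day 0, a log2 change of 0.77 ± 0.10 (edgeR adjusted p = 7.98e-05). TAPBPL, a peptide editor that overlaps CD27 and VAMP1, and HLA-F, a nonclassical class I gene, rose by 0.51 and 0.90. That made 3 of 22 tested MHC class I members (13.6%), with 0 that fell, a median of 0.177 and, blocked, 9 that rose; HLA-F's call was lost without replicate 2 of day 0 (edgeR adjusted p = 0.0501), which left 2. In the interferon list 4 of 26 tested rose (15.4%), 0 fell, the median was 0.265, and blocked 7 rose. IFIT2 and IFIT1, RNA-binding interferon-induced proteins, IFI6 and STAT2, the interferon signal transducer, rose by 1.72, 1.43, 1.12 and 0.45. Every one of these calls was lost without some single library (edgeR adjusted p up to 0.0587, 0.097, 0.121 and 0.208), and the count of 4 became 1, 2, 2, 1 and 2 without replicate 2 or 3 of day 3 and replicate 1, 2 or 3 of day 0. No apolipoprotein L gene of 5 tested was called (0 unadjusted, 0 by DESeq2).

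Cell division genes were lower at day 3 in nearly every member, though fewer were called. In the G2/M and mitosis list 13 of 43 tested members fell (30.2%) and 0 rose. All 43 had a negative change, against 8230 of all 15783 genes tested. The median was -0.376, and blocked 34 fell. AURKA, the Aurora A kinase, had 83.2, 81.5 and 81.9 CPM at day 3, against 117, 124 and 116 CPM at day 0, a log2 change of -0.54 ± 0.07 (edgeR adjusted p = 7.89e-05). KIF2C, a kinesin that takes microtubules apart at kinetochores, fell by 0.58, HJURP, the chaperone of centromeric histone, by 0.57, and BUB1, a spindle checkpoint kinase, by 0.54. In these 4 genes the groups did not overlap. BUB1's call was lost without replicate 3 of day 3 or replicate 1 of day 0 (edgeR adjusted p up to 0.0766), and the list's count was 5, 8 and 5 without replicate 3 of day 3, replicate 1 of day 0 and replicate 2 of day 0. The summed level of the list was 4050 to 4560 CPM at day 3, against 5210 to 5870 CPM at day 0.

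The HJURP promoter is shown as that of one of the called G2/M genes whose windows hold TTTGAA, the core of the cell cycle homology region of mitotic promoters. It covers chr2:233854536-233854785 on the minus strand, and capitals mark the run, 111 bases upstream.
HJURP: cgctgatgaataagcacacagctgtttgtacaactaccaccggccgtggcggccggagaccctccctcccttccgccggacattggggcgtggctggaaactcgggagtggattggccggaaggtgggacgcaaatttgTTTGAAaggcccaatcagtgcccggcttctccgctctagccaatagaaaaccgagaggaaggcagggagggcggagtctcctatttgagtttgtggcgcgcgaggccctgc
TTTGAA lay in 51.4% of 35 G2/M promoters, against 8.41% of all 11443 searched, and CCAAT in 74.3%, against 34.8%. Among the 8 promoters of called G2/M genes 2 held TTTGAA and 7 held CCAAT.

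G1/S and DNA replication genes leaned the same way. Of 43 tested members 3 fell (6.98%) and 0 rose. A negative change was found in 42, against 8230 of all 15783 genes tested. The median was -0.306, and blocked 33 fell. Unadjusted, 23 were lower, and DESeq2 called 9. RFC3, a clamp loader subunit, MCM4, a helicase subunit, and RRM1, a ribonucleotide reductase subunit, fell by 0.50, 0.42 and 0.41. MCM4 had 290, 259 and 268 CPM at day 3 against 364, 381 and 352 CPM at day 0. RFC3 and RRM1 lost their calls without any of the 6 libraries (edgeR adjusted p up to 0.168 and 0.141), and MCM4 without replicate 2 of day 3 or of day 0 (edgeR adjusted p up to 0.0573). The count of 3 was 0 without replicate 2 of either day, and 1 without replicate 3 of day 3 or replicate 1 or 3 of day 0. MYC, the growth-promoting factor, had 350, 268 and 271 CPM at day 3 and 419, 395 and 326 CPM at day 0, groups that overlapped, with a log2 difference of -0.36 (edgeR adjusted p = 0.156) that was called when blocked (adjusted p = 0.000325).

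Genes of the ATF4 program, which answers amino acid shortage with synthesis and import enzymes, fell as well. Of 37 tested members 12 fell (32.4%) and 0 rose, with a median of -0.392, and blocked 30 fell. MTHFD2, a mitochondrial folate enzyme overlapped by SLC4A5, had 430, 439 and 421 CPM at day 3, against 752, 699 and 672 CPM at day 0, a log2 change of -0.72 ± 0.10 (edgeR adjusted p = 6.65e-05). PSAT1, a serine synthesis enzyme, had 278, 276 and 266 CPM at day 3 against 434, 415 and 404 CPM at day 0, and fell by 0.61 ± 0.09. TRIB3, a pseudokinase of the stress response, fell by 0.65. The groups of these 3 genes did not overlap. FGF21, a stress hormone, fell by 0.97, lost without any single library but replicate 1 of day 0 (edgeR adjusted p up to 0.197). The count of 12 was 7, 7 and 6 without replicate 2 of day 3, replicate 3 of day 3 and replicate 2 of day 0.

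In the p53-family target list 2 of 41 tested members rose (4.88%) and 4 fell (9.76%), against 4.35% and 1.99% of all genes. The median was -0.132, and blocked 5 rose and 14 fell. CD82, a tetraspanin, had 20.2, 20.7 and 25.8 CPM at day 3 against 9.06, 9.32 and 10.8 CPM at day 0 and rose by 1.19, and PLK2, a polo-like kinase, by 1.29, a call lost without replicate 2 or 3 of day 3 or replicate 1 or 2 of day 0 (edgeR adjusted p up to 0.178), so that the count of 2 became 1 without replicate 2 or 3 of day 3 or replicate 2 of day 0. BBC3, the death gene PUMA, fell by 0.88, and JAG1, a Notch ligand with MIR6870 in it, by 0.55, VDR and PMAIP1 being the other falls. CDKN1A, the p21 cell cycle inhibitor, overlapped by DINOL, had 9.78, 12.2 and 9.53 CPM at day 3 and 8.57, 7.22 and 4.66 CPM at day 0, with a log2 difference of 0.63 that was not called (edgeR adjusted p = 0.0551) but was blocked (adjusted p = 0.00145).

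Other signalling and stress lists moved in few members. In the Notch pathway 1 of 29 rose, HES2, and 1 fell, JAG1 (3.45% each, against 4.35% and 1.99% of all genes). The median was -0.0591, and blocked 4 rose and 4 fell. Of 36 receptor tyrosine kinases and ligands 3 rose (8.33%) and 2 fell (5.56%), with a median of 0.0393, and blocked 7 rose and 4 fell. MERTK, a kinase of dead cell clearance, had 5.26, 4.91 and 4.45 CPM at day 3 against 1.65, 2.16 and 1.64 CPM at day 0. It rose by 1.41 ± 0.20, ALK and FGFR1 rose too, and PDGFRA and EPHA4, an ephrin receptor, fell. EPHA4's fall by 0.43 was lost without any single library but replicate 2 of day 0 (edgeR adjusted p up to 0.126), and the counts of this list were 2 and 1 without replicate 1, 2 or 3 of day 3 or replicate 1 of day 0, and 3 and 1 without replicate 3 of day 0. Among 15 inflammatory genes IL23R rose and IL23A, a subunit of its ligand, fell by 1.01 (6.67% each). IL23A's call was lost without replicate 1 of day 3 or replicate 2 of day 0 (edgeR adjusted p up to 0.0971). The median there was -0.108, and blocked 2 rose and 4 fell.

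Among 32 immediate early genes 1 rose (3.12%) and 4 fell (12.5%), against 4.35% and 1.99% of all genes. The median was -0.167, and blocked 4 rose and 8 fell. EGR1, a growth-induced zinc finger factor, had 27.2, 23.4 and 22.1 CPM at day 3 against 11.6, 11.1 and 9.13 CPM at day 0 and rose by 1.19 ± 0.32 (edgeR adjusted p = 0.028), a call lost without any of the 6 libraries. KLF10, a TGF-beta-induced repressor, fell by 0.57, NR4A3, an orphan nuclear receptor, by 0.61 and SPRY1, a feedback inhibitor of kinases, by 0.50, the last being lost without any single library but replicate 1 of day 0 and NR4A3 without replicate 2 of day 0 (edgeR adjusted p up to 0.149 and 0.0511). Without 1 library 1 to 4 members fell and 0 to 1 rose: 2 fell without replicate 1 or 2 of day 3 or replicate 3 of day 0, and 1 without replicate 2 of day 0. Of 27 polycomb genes 1 fell (3.7%) and 0 rose, with a median of -0.0612, and blocked 3 rose and 4 fell. The fall was that of RBBP4, overlapped by SYNC, by 0.29, a call lost without any single library. EZH2, the methyltransferase named in the treatment label, had 171, 161 and 159 CPM at day 3 and 198, 163 and 182 CPM at day 0, groups that overlapped (log2 difference -0.15, edgeR adjusted p = 0.554).

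Of 33 sterol and fatty acid synthesis genes 1 rose and 1 fell (3.03% each, against 4.35% and 1.99% of all genes). TM7SF2, a sterol reductase that overlaps VPS51 and ZNHIT2, rose by 0.54 and INSIG1, a sterol sensor, fell by 0.38. Both calls were lost without replicate 1 or 2 of day 3 or any replicate of day 0 (edgeR adjusted p up to 0.154 and 0.145). INSIG1's was also lost without replicate 3 of day 3. The list's median was -0.0905, and blocked 1 rose and 6 fell. Of 35 hypoxia and glycolysis genes 1 rose (2.86%), CA12, a carbonic anhydrase, by 2.50, and 0 fell. The median of this list was -0.195, and blocked 1 rose and 10 fell. Of 28 NRF2 and antioxidant genes 1 rose (3.57%), ALDH3A1, an aldehyde dehydrogenase, by 1.46, and 0 fell. The median here was -0.0249, and blocked 3 rose and 1 fell. ALDH3A1 had 59.0, 45.7 and 46.8 CPM at day 3 against 21.8, 17.1 and 16.6 CPM at day 0. No gene was called among 26 of heat shock and the unfolded protein response (unadjusted, 0 higher and 2 lower; DESeq2, 0 and 0; blocked, 2 and 3) or 25 HOX genes (unadjusted, 1 and 2; DESeq2, 0 and 1; blocked, 0 and 3), with medians of -0.055 and 0.00386.

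Whether the day 3 response of ΔNp63 differed from that of TAp63 was tested as the difference between the lines' log2 changes, ΔNp63 minus TAp63. In 17 genes it was higher (0.108% of genes tested) and in 3 lower (0.019%), and blocked in 101 (0.64%) and 48 (0.304%). PADI3 averaged 93.6 ± 4.99 CPM at day 3 and 3.04 ± 0.0651 CPM at day 0 in the ΔNp63 line, and 6.10 ± 1.59 CPM at day 3 and 3.56 ± 1.22 CPM at day 0 in the TAp63 line, a difference of 4.06 ± 0.28 (edgeR adjusted p = 9.25e-08). KRT5 averaged 7.54 ± 0.517 CPM at day 3 and 0.641 ± 0.108 CPM at day 0 in the ΔNp63 line, and 0.462 ± 0.289 CPM at day 3 and 0.496 ± 0.128 CPM at day 0 in the TAp63 line, a difference of 3.49 ± 0.53 (edgeR adjusted p = 0.0067), lost without replicate 3 of TAp63 day 0 (adjusted p = 0.072). TGFBI and FXYD3 differed by 3.03 ± 0.30 and 3.12 ± 0.40 (edgeR adjusted p = 1.6e-05 and 0.00105). KRT5, TGFBI and FXYD3 had log2 changes of 2.63 to 3.53 in the ΔNp63 line and of -0.49 to 0.47 in the TAp63 line.

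LIMS2, SCEL, MERTK and TRIM29 also differed, by 3.46, 3.39, 1.75 and 1.42 log2 units; the calls of the last 3 were lost without 11, 6 and 7 of the 12 libraries compared, each taken alone (edgeR adjusted p up to 0.119, 0.0712 and 0.0767). OLFML2A, TOGARAM2, ST6GALNAC2, DGKA, LNCTAM34A, CCDC159, HAP1, ARHGDIB and PHLDB3 were the remaining genes higher in this difference. SLC13A3, TCF23 and ANKS4B were the 3 lower. TP63 itself changed by 7.64 in the ΔNp63 line and 7.57 in the TAp63 line, a difference of 0.07 (edgeR adjusted p = 0.9997). Its levels were not equal, averaging 865 ± 140 CPM at day 3 and 4.35 ± 0.518 CPM at day 0 in the ΔNp63 line. In the TAp63 line they averaged 558 ± 93.0 CPM at day 3 and 2.94 ± 0.0359 CPM at day 0. The part of this level in the differences between the lines was not tested. Without single libraries the higher count was 9 to 18 and the lower count 1 to 5: 11, 9, 10 and 9 genes were higher without replicate 1 or 3 of TAp63 day 0 and replicate 1 or 2 of TAp63 day 3, while 5 were lower without replicate 1 of ΔNp63 day 3 and 1 or 2 without any other library.

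**Figure D4:**
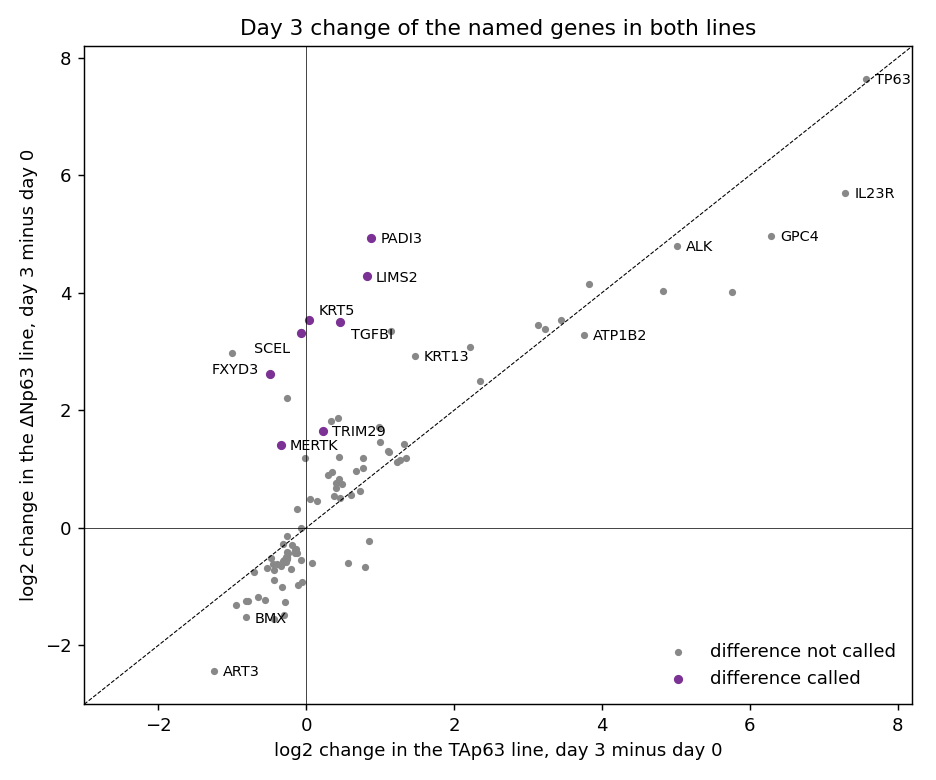
Log2 change at day 3 minus day 0 in the ΔNp63 line (vertical axis) against that in the TAp63 line (horizontal axis) for the named genes with counts on both days; the dashed line marks equal changes. The 8 genes of which the difference was called, in purple, lie above the line, PADI3 at 4.94 against 0.88 and KRT5 at 3.53 against 0.05, while TP63 lies beside it.

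Day 3 was one point of a longer course. TP63 had 721 and 576 CPM in the 2 day 1 libraries analysed and 1034, 836 and 908 CPM at day 6. PADI3 averaged 33.6 CPM at day 1, BMX 35.1 and 36.0 CPM and CRYM 84.8 and 84.8 CPM, values between those of day 0 and day 3, whereas KRT5 had 0.579 and 1.68 CPM. Day 6 was tested against day 3: 10 genes were higher at day 6 (0.0634%) and 4 lower (0.0253%), and blocked 101 (0.64%) and 138 (0.874%).

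KRT5, FXYD3 and TGFBI were still higher at day 6. KRT5 had 26.4, 19.7 and 21.3 CPM at day 6, against the 6.96 to 7.95 CPM of day 3, a log2 change of 1.58 ± 0.23 (edgeR adjusted p = 0.0024). FXYD3 had 33.8, 39.1 and 34.9 CPM at day 6 and changed by 1.75 ± 0.22, and TGFBI had 41.7, 40.6 and 49.0 CPM and changed by 1.16 ± 0.16. FN1 had 145, 127 and 140 CPM at day 6 and changed by 0.99, and LIPF had 4.29, 7.19 and 5.85 CPM and changed by 2.42, a call lost without any of the day 3 replicates or replicate 2 of day 6 (edgeR adjusted p up to 0.079). GSTA1, SLC6A5, ADRA2A, BMP7 and AMOT were the other genes higher.

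ALK had 1.87, 1.01 and 1.90 CPM at day 6, against the 6.36 to 8.34 CPM of day 3, a log2 change of -2.20 ± 0.30 (edgeR adjusted p = 0.00158). HTR3E, a serotonin receptor subunit overlapped by HTR3E-AS1 and outside the naming rule, named after its values were seen, had 21.1, 26.3 and 27.2 CPM at day 6, against 67.8, 67.6 and 67.9 CPM at day 3, and OPCML and APOL4 were lower too. PADI3, KRT13 and TRIM29 were not called different between day 6 and day 3 (edgeR adjusted p = 1, 0.901 and 0.462), TRIM29 being called when blocked (adjusted p = 0.0454). Without single libraries the higher count was 4 to 8 and the lower count 2 to 6: 4 genes were higher without any one of replicates 1 to 3 of day 3, and 2 lower without replicate 3 of day 3 or replicate 2 of day 6. The day 3 libraries enter both comparisons, so their values are only set side by side.

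**Figure D5:**
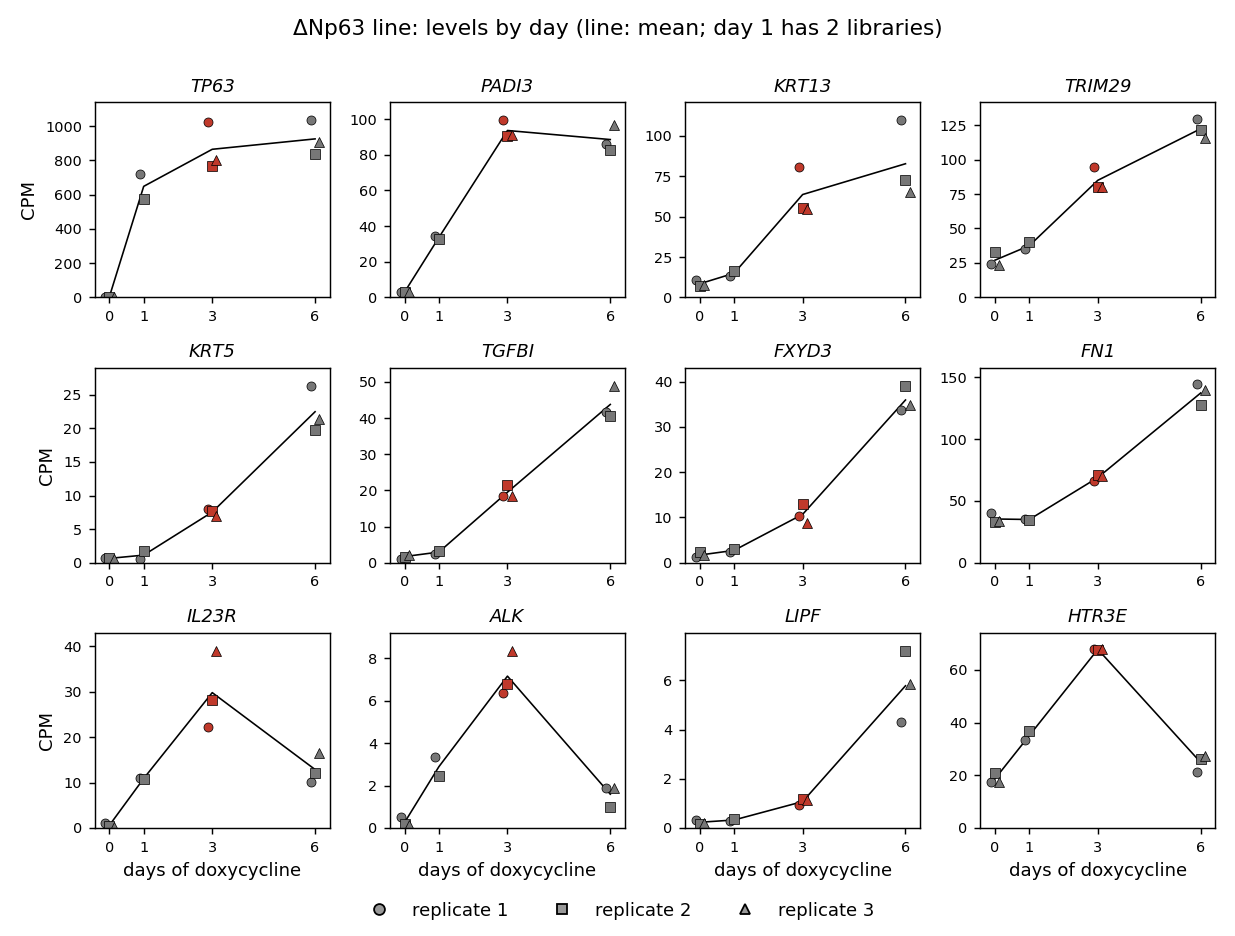
CPM (vertical axis, linear from 0) of 12 genes by days of doxycycline in the ΔNp63 line, with points by replicate number, day 3 in red and a line through the means; day 1 has 2 libraries. KRT5, TGFBI, FXYD3, FN1 and LIPF are higher at day 6 than at day 3, ALK and HTR3E lower, and the day 6 change of the other genes was not called as fitted.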

How the data were processed

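TRIzol extraction and NEBNext Ultra library kits were used, per the labels' protocols. HISAT2 2.1.0, featureCounts 1.6.1, DESeq2 and hg38 are named in the submitters' processing notes. The deposited values are raw counts per gene, not normalized; per the file headers they came from featureCounts 2.0.0 on UCSC refGene for hg38, not the version in the notes. That command counted paired fragments over whole transcripts, introns included, without a strand option.

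Of 28278 genes, 6005 had 0 counts in all 24 libraries. In R 4.3.3, edgeR 4.0.16 (filterByExpr by group, TMM, glmQLFit, glmQLFTest) fitted 23 libraries with a mean per group, 15 residual degrees of freedom and 15783 genes. Replicate 3 of ΔNp63 day 1, with 1530847 counts, was left out. SE is the absolute log2 change divided by the root of the F statistic. Adjusted p values are Benjamini-Hochberg over all genes tested. Scripts were tested on simulated data.

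Replicate numbers come from the titles. Same-numbered deviations from the group means of day 3 and day 0 correlated at 0.696, 0.255 and 0.66, each over 0.1, so the numbers were taken to pair the libraries. Replicate 2 of day 3 correlated at 0.245 with replicate 3 of day 0, close to its 0.255, so its pairing is less sure. The fit with the replicate number as a block stands beside a result it changes. Other alternatives were all 24 libraries, only the libraries compared, relative log expression (RLE) size factors, no filter, DESeq2 1.42.0 and each library left out in turn; leaving each replicate number out of every group was added after seeing the data.

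Named genes were TP63; the 14 largest rises and 10 largest falls among called genes averaging at least 5 CPM in the higher group with groups apart (LOC, LINC and MIR symbols excepted); up to 4 called members per list by size; and a set named regardless of its calls. Other genes were named after their values were seen. The members and the 33 lists were chosen with earlier results of these data known. Lists have no test of their own. The values of 1 gene are not reported here. Promoters are RefSeq's (GRCh38.p14), within 1000 bases of the table's start. Intervals and floors cover counting error only.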

Additional observations from a re-analysis of the deposited data

Results flagged for a closer look

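The following genes were picked out because the test of the difference between the lines' day 3 responses, ΔNp63 minus TAp63, passed the threshold, and all are higher in the ΔNp63 line. PADI3 differed by 4.06 log2 units, LIMS2 by 3.46, KRT5 by 3.49 and TGFBI by 3.03. SCEL differed by 3.39, FXYD3 by 3.12, MERTK by 1.75 and TRIM29 by 1.42. Leaving out 1 library at a time kept the calls of PADI3, LIMS2, TGFBI and FXYD3, with an edgeR adjusted p of at most 0.0482. The calls of KRT5, SCEL, MERTK and TRIM29 were lost without at least 1 library, with an adjusted p of up to 0.072, 0.119, 0.0712 and 0.0767. With all 24 libraries fitted, SCEL, MERTK and TRIM29 were not called (edgeR adjusted p = 0.2, 1 and 1), and blocked all 8 were.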

How the results depend on the processing

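TP63 kept its call and direction under every alternative, at log2 changes of 7.50 to 7.73. Day 3 against day 0 had 686 genes higher and 314 lower, against 260 and 84 with all 24 libraries, 434 and 112 with only the libraries compared, 206 lower with no filter and 513 lower by DESeq2. The replicate block gave 1933 and 1779, and with only the libraries compared 1902 and 1586. Same-numbered libraries were taken to pair, less surely for replicate 2, and the block ended no call of a named gene. Leaving out libraries or replicate numbers gave 94 to 599 higher and 15 to 241 lower, the lowest without replicate 2 of every group. The difference between the lines had 17 genes higher and 3 lower, against 6 and 1 with all 24 libraries, 3 and 0 with only the libraries compared, 1 lower with no filter and 35 and 8 by DESeq2. With the replicate block it had 101 and 48, and 148 and 74 with only the libraries compared. With libraries or replicate numbers left out it had 1 to 18 and 0 to 5. Day 6 against day 3 had 10 higher and 4 lower, against 1 and 1 with all 24 libraries and 21 and 11 by DESeq2. The replicate block gave 101 and 138, and 200 and 508 with only the libraries compared. With libraries or replicate numbers left out there were 0 to 8 and 1 to 6. Rises were 68.6% of the day 3 calls, 75.6% with all 24 libraries and 59.6% by DESeq2. Of 92 named genes called, 0 reversed and 27 kept their call in every alternative; 39 lost it with all 24 libraries, 30 without some single library, 20 with only the libraries compared, 11 without the filter, 1 with RLE size factors and 0 by DESeq2. Where causes are not given above, the cause was not tested.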
